A study of Rattus norvegicus with 36 samples.

Results

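The comparison described here set the L4 dorsal root ganglia of rats with a ligated L5 spinal nerve against the ganglia of sham-operated rats, both taken 28 days after surgery. The members are 12 of the 36 arrays of the series, chosen by their titles alone: on each of 3 chip types (Affymetrix RG_U34 A, B and C, which carry different probe sets) the 2 L4 arrays and the 2 sham arrays of that day. The L4 pool came from operated rats whose own L4 nerve was not ligated. The sham pool held L4 and L5 ganglia together, so any normal difference between these levels is part of the comparison. Both pools were made from 30 rats where a number is given, and the labels of the chip C L4 arrays and of 1 chip B sham array give none. No strain, age or sex was given in the sources used here. The 2 arrays of a pool share its RNA, so there was 1 pool a side, the spread between arrays is technical, and no p-value was computed at this day. One chip B sham array is titled 28 days while its description says 50 days; it was used by its title. Across tested probe sets its log2 signals correlated at 0.952 with the other sham array of 28 days and at 0.932 and 0.928 with the sham arrays of 50 days.

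Dorsal root ganglia hold the cell bodies of sensory neurons, each wrapped by satellite glia and sending an axon into a spinal nerve. When the L5 nerve is tied, its neurons are cut off from their targets and switch on injury genes such as Atf3 and the neuropeptides galanin, NPY and VIP. The L4 ganglion keeps its axons, which then run in the sciatic nerve beside degenerating L5 fibres, and spared L4 neurons are widely studied as a possible source of the pain behaviour in this model.

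Values are MAS5 signals, and a difference is the mean log2(signal + pseudocount) of the L4 arrays minus that of the sham arrays, with a pseudocount of 12.8, 17.7 or 20.2 on chips A, B and C. The ± beside a difference is its technical SE (n = 2 arrays a pool). A probe set was called where the difference was at least 1, a doubling or halving on this scale, and all 4 pairs of 1 L4 and 1 sham array differed that way. Of 26202 probe sets, 15721 passed a filter on the mean signal of all arrays of a chip type, L5 included. With a filter on the L4 and sham arrays alone, chosen after seeing the data, 5 of the genes named below would not have passed: Edrf1, N5, Arg1, Myh2 and Reg3b. Arrays of one pool correlated at 0.928 to 0.958, and L4 with sham arrays at 0.918 to 0.949.

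The L4 ganglia differed little from sham at 28 days. The median size of a difference was 0.205, the median technical SE was 0.188, and 90% of probe sets lay within 0.582. In all, 167 probe sets were called higher in L4 (1.06%) and 95 lower (0.604%). With 1 probe set per gene, the brightest, 61 of 8269 genes were called higher (0.738%) and 45 lower (0.544%). As a measure of technical spread, the 2 arrays of a single pool differed by 1 or more at 2.48% to 7.34% of probe sets, depending on pool and chip. That compares single arrays in either direction. A call rests on means of 2 arrays and on all 4 pairs, so the shares cannot be set directly against each other. Without the first or the second sham arrays 356 and 402 were called higher and 194 and 185 lower, and without the first or the second L4 arrays 270 and 226 higher and 251 and 248 lower. The rule is looser there, as only 2 array pairs had to differ that way and 1 side rested on a single array. Scaled to the hybridisation controls spiked into each array, 829 were called higher and 31 lower, and the overall median difference went from -0.01 to 0.37. Directions given here hold against the average signal of an array, and small negative values, list medians among them, turn positive on that scale. Calls were mostly at dim probe sets: 3.59% of those with a mean signal under 100 were called, 0.929% of those from 100 to 300, and 0.549% of those at 300 or above.

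**Figure D1:**
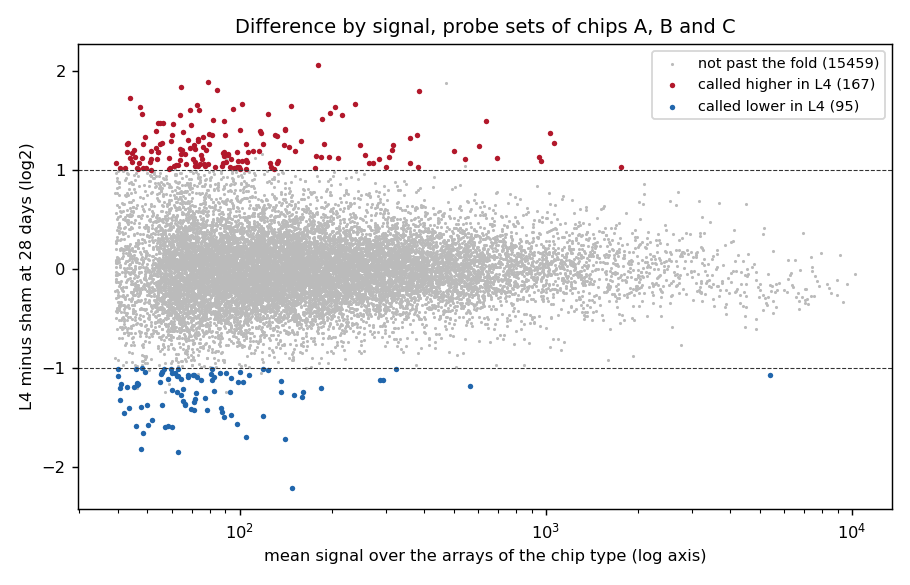
Each point is 1 of 15721 probe sets, with its mean signal on the horizontal log axis and its L4 minus sham difference at 28 days (log2) on the vertical axis; dashed lines mark differences of 1 and -1. The 167 probe sets called higher (red) and 95 called lower (blue) lie mostly at low signal, and only 22 of them have a mean signal of 300 or above.

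The leading genes higher in L4 came from unrelated functions. Flot2, which encodes a scaffold protein of membrane rafts, gave signals of 249 and 291 in L4 and 48.6 and 61.7 in sham, a difference of 2.06 ± 0.18. Eef2, the elongation factor that moves the ribosome along mRNA, gave 110.4 and 106 in L4 and 18.6 and 20.9 in sham, a difference of 1.89 ± 0.06. For both genes the L4 arrays lay far above the sham arrays, with little spread between arrays of a pool. The 3 other tested probe sets of Eef2 were also higher in L4, by 0.08 to 0.77, and none of them was called. Tuba1a, an alpha-tubulin of neurons that is prominent in growing axons, gave 299.6 and 332 in L4 and 80.3 and 108.9 in sham (1.58 ± 0.20). Arg1, which encodes the arginine-degrading enzyme arginase and is known as a gene of axon regeneration, gave 59.5 and 47.5 in L4 and 2.7 and 12.7 in sham (1.73 ± 0.38). Here the sham values were below the pseudocount, so the size of the difference depends on it.

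The other leading genes on this side were Edrf1 (1.84), Hgf (1.66), a growth factor that acts through the Met receptor, N5 (1.64), Igf2bp2 (1.61), which encodes an mRNA-binding protein, Pdhb (1.61), a subunit of pyruvate dehydrogenase, Atp1b2 (1.56), a beta subunit of the sodium pump, C1qc (1.51), a chain of complement C1q, Ptpa (1.45), an activator of protein phosphatase 2A, Enoph1 (1.33), an enzyme of methionine salvage, and Ctla4 (1.27), an inhibitory receptor of T cells. All L4 arrays of these 10 genes lay above all sham arrays, as the rule requires. Sham values of Edrf1 (16.8 and 6.3) and C1qc (11.5 and 14.1) were below the pseudocount, like those of Arg1. With the pseudocount at the 40th percentile C1qc, Enoph1 and Ctla4 lost their calls. The C1qc result came from its dimmer probe set, and the brighter one differed by 0.10 ± 0.30. All 4 other probe sets of Pdhb (0.28 to 0.66) and all 3 of Atp1b2 (0.10 to 0.62) had the same sign without a call, while those of Ptpa (-0.12 and 0.05) and Enoph1 (0.07) were near 0.

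Among the leading genes lower in L4 were enzymes, receptors and growth factor genes, most of them at low signal. Tcof1, a nucleolar protein of ribosome synthesis, gave 21.0 and 21.0 in L4 and 118 and 127 in sham, a difference of -1.85 ± 0.04. Insr, the insulin receptor, gave 14.9 and 21.6 in L4 and 74.7 and 77.9 in sham (-1.53 ± 0.16). Mvk, the mevalonate kinase of cholesterol synthesis, gave 27.6 and 27.0 in L4 and 139 and 83.0 in sham (-1.59 ± 0.33). In each of these 3 the groups were well apart, while the sham arrays of Mvk differed from each other. Slc6a9, a glycine transporter, gave 49.8 and 38.6 in L4 and 129 and 227 in sham (-1.70 ± 0.40).

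The remaining genes on the lower side were Cyp4a1 (-1.83) and Cyp2a3 (-1.66), both cytochrome P450 enzymes, Gdf10 (-1.60), a member of the TGF-beta superfamily, Klra22 (-1.59), Atn1 (-1.59), S100b (-1.57), a calcium-binding protein of glia, Mrpl38 (-1.45), a mitochondrial ribosomal protein, Msln (-1.44), Fst (-1.34), the activin antagonist follistatin, and Mlnr (-1.20). Mlnr lost its call when scaled to hybridisation controls (-0.84). Both L4 values of Klra22 (5.1 and 7.5) were below the pseudocount. With the pseudocount at the 40th percentile Klra22, Msln, Mrpl38 and Fst lost their calls. S100b has a second tested probe set, which was 0.16 higher in L4, and those of Tcof1 (-0.10), Slc6a9 (-0.12), Mlnr (-0.09) and Mrpl38 (-0.02) were near 0.

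**Figure D2:**
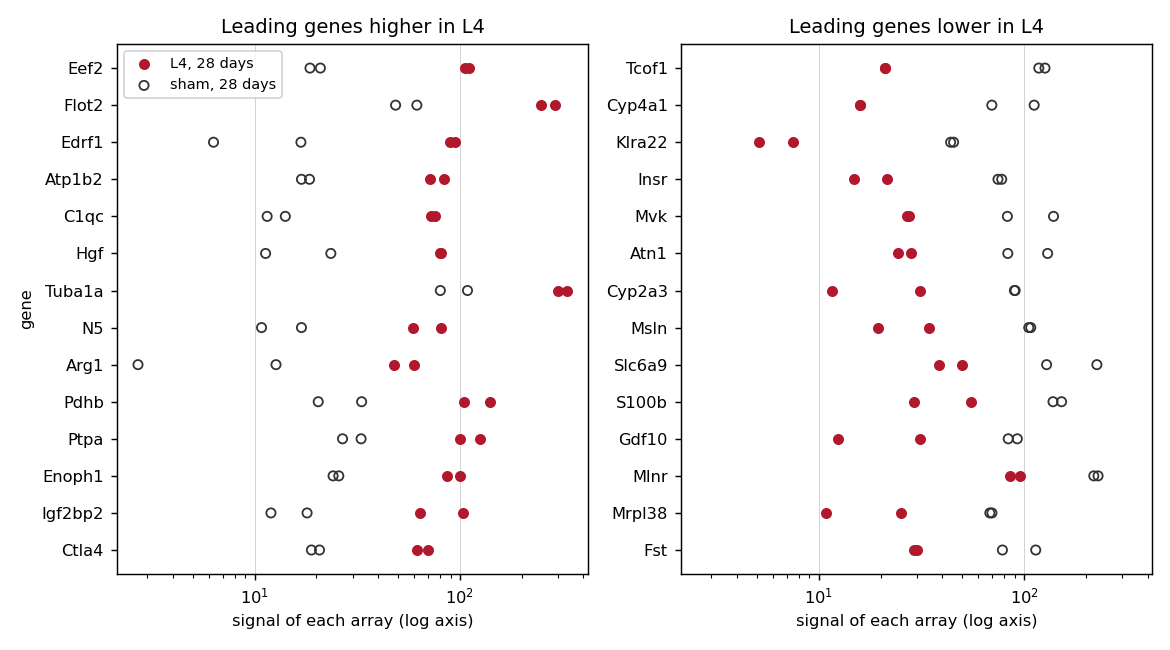
Signal of each array (log axis) for the 14 leading genes higher in L4 (left) and the 14 lower (right); filled points are the 2 L4 arrays and open points the 2 sham arrays of 28 days. The groups do not overlap for any of the 28 genes, as the rule of choice requires, and the lower group has signals of at most 34.6 in all of them except Flot2, Tuba1a, Slc6a9, S100b and Mlnr.

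Agreement between probe sets of the same gene gives a further check that the rule did not use. Each called probe set was paired with every other probe set of its gene, so 2 called probe sets of 1 gene count from both sides. Of 146 such pairings for probe sets called higher, 94 (64.4%) had the same sign. In 6 the other was called higher too, beside 1.06% of all probe sets. Of 30 pairings for probe sets called lower, 18 (60%) had the same sign and in 0 was the other called lower. Over all pairs of probe sets of 1 gene, 53.6% had the same sign, and such probe sets can share target sequence. Genes called on a pair of probe sets were Myl11 (1.02 and 1.19), a light chain of fast skeletal muscle myosin, Nploc4 (1.37 and 1.35), a cofactor of the segregase VCP, and Tmem214 (1.01 and 1.06). The 6 pairings are these genes, each counted from both sides.

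Of the 22 called probe sets with a mean signal of 300 or above, 12 had 1 gene, and all 12 were higher in L4. These were picked after their values were seen. Uchl1, the neuronal deubiquitinase PGP9.5, gave 1491 and 1504 in L4 and 730.2 and 665 in sham (1.09 ± 0.07), but its 4 other probe sets ran from -0.88 to 0.86. Rps16, a protein of the small ribosomal subunit, gave 1237 and 1314 in L4 and 555 and 589.8 in sham (1.13 ± 0.06), and its 2 other probe sets stood at 0.16 and 0.17. Eno1, the glycolytic enzyme enolase, gave 728 and 769 against 342 and 301 (1.19 ± 0.10), with its other probe set at -0.16. In these genes the called probe set was sharply apart from sham, and no other probe set of the gene was called. The other bright genes were Bcat1 (1.35 ± 0.37), Mdh1 (1.33 ± 0.43), Acta1 (1.25 ± 0.26), Ngfr (1.14 ± 0.42), Cd74 (1.12 ± 0.04), Gabarapl1 (1.11 ± 0.39), Epdr1, Mbnl2 and Taok2. The last 3 depended most on 1 sham array: Epdr1 (1.38 ± 0.87) had sham signals of 287 and 1006, Mbnl2 (1.21 ± 1.00) of 53.6 and 269, and Taok2 (1.03 ± 0.62) of 124 and 297, and without the first sham arrays they differed by 0.51, 0.22 and 0.45. Mdh1 differed by 0.90 without the first sham array, Ngfr by 0.73 without the second, and Gabarapl1 by 0.77 without the first L4 array. Other probe sets of Mbnl2 reached -0.76 and of Mdh1 -0.41, and those of Gabarapl1 ran from -0.18 to 0.98. The other probe set of Bcat1 stood at 0.12 and that of Ngfr at 0.03.

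The genes that mark axon injury showed small differences in L4 beside large ones in the ligated L5 ganglion. Vip gave 177 and 198 in L4 against 98.3 and 126 in sham, a difference of 0.66 ± 0.17. Npy gave 419 and 307 against 186 and 234 (0.74 ± 0.27). Gal, the galanin gene, gave 277 and 219 against 128 and 145 (0.80 ± 0.18). Each L4 array was above each sham array for the 3 neuropeptides, and none reached the fold of 2, though all 3 passed it when scaled to hybridisation controls (1.18, 1.14 and 1.19). In the L5 pool of the same day, set against the same sham arrays, the differences were 2.98 for Vip, 2.21 for Npy and 1.97 for Gal.

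Atf3, the transcription factor used as a marker of axotomised neurons, gave 189 and 252 in L4 against 146 and 161 in sham (0.47 ± 0.20), and its difference in L5 was 1.56. Cacna2d1, the calcium channel subunit alpha2delta-1 to which gabapentin binds, gave 825 and 856 in L4 against 464 and 502 in sham (0.78 ± 0.06, or 1.19 when scaled to hybridisation controls), and 1.35 in L5. It had the smallest technical SE of these 5 genes, and its L4 arrays were close to each other. At 50 days, in pools that share no array with those of 28 days, all 5 genes were again higher in both L4 arrays than in both sham arrays, by 1.03 for Vip, 0.95 for Npy, 0.55 for Gal, 0.41 for Atf3 and 0.29 for Cacna2d1. Of 18 tested genes that were to be named in any case, 5 were higher in this way at both days and 0 lower; over all genes the shares were 3.80% and 4.45%. The 18 genes were picked with their L5 results known. In bulk tissue, more cells that express a gene and more RNA of it per cell cannot be told apart.

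Other injury genes differed less or had overlapping arrays. Sprr1a, a regeneration-associated gene, differed by -0.13 ± 0.17, and Reg3b, a secreted lectin of injured neurons, by 0.52 ± 0.61 with overlapping arrays. Gap43, the growth cone protein, gave 1754 and 1750 in L4 against 1673 and 1561 in sham (0.12 ± 0.05), with the L4 arrays just above the sham arrays. Jun differed by 0.06 ± 0.15 in L4 and by 1.37 in L5. Bdnf, whose protein signals from sensory neurons to the spinal cord, differed by 0.00 ± 0.13, with overlapping arrays.

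**Figure D3:**
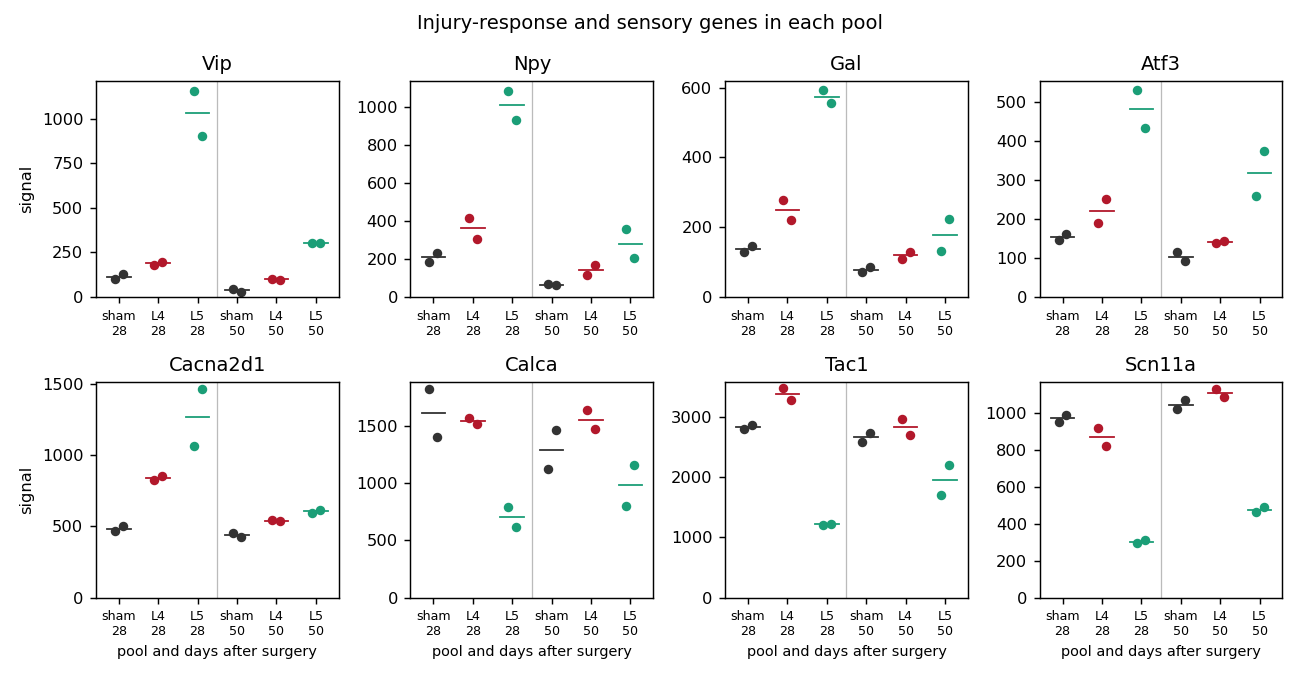
Signal of each array (points, 2 a pool) and pool mean (lines) for 8 genes in sham, L4 and L5 pools at 28 and 50 days after surgery. Vip, Npy, Gal, Atf3 and Cacna2d1 lie between sham and L5 in L4 at both days, while for Calca, Tac1 and Scn11a the L4 pools stay near sham and the L5 pools are low.

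The list of axon injury and regeneration genes as a whole had a median of 0.06 in L4, beside -0.02 over all genes, with 19 of 31 tested members above 0 (47.2% of all genes were). Of these 31, 11 were higher in every pair and 3 lower (19.7% and 23.5% of all genes were). Arg1 and Csrp3 (1.19 ± 0.70) were called higher and Fst lower. Csrp3, a muscle LIM protein, gave 100.9 and 80.9 in L4 and 60 and 15.5 in sham, so 1 low sham array carried much of its difference. Tubb3 (0.78 ± 0.28), Stmn2 (0.66 ± 0.11), Crabp2 (0.69 ± 0.15) and Gadd45a (0.36 ± 0.02) were higher in every pair without reaching the fold. Basp1 (-0.56 ± 0.04) and Hspb1 (-0.35 ± 0.09), a small heat shock protein of regenerating neurons, were lower in every pair.

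Of 21 tested neuropeptide genes, 0 were called, 10 were above 0 and the median was -0.02. Tac1, the precursor of substance P, gave 3482 and 3292 in L4 against 2807 and 2875 in sham (0.25 ± 0.04). Calca, the precursor of CGRP, gave 1574 and 1519 against 1828 and 1402 (-0.05 ± 0.19), so its arrays overlapped. In L5 both were lower, by -1.21 and -1.18. Sst, the somatostatin gene of a class of itch neurons, gave 450.5 and 478 in L4 against 730.3 and 831 in sham (-0.73 ± 0.10), with both L4 arrays below both sham arrays; at 50 days it differed by -0.04.

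Genes of excitability were near sham. Among 10 tested sodium channel subunits 0 were called, 8 were below 0 and the median was -0.17. Of these 10, 5 were lower in every pair and 1 higher (23.5% and 19.7% of all genes were). Scn9a, the channel Nav1.7 of nociceptors, gave 197 and 215 in L4 against 291 and 269 in sham (-0.42 ± 0.08), and stood at 0.00 at 50 days; its other tested probe set was at 0.13. Scn11a (Nav1.9) differed by -0.16 ± 0.08 in L4 and by -1.64 in L5, and Scn10a (Nav1.8) by -0.34 ± 0.58 and -1.66. Scn3a, known to appear in injured neurons, differed by -0.29 ± 0.15 in L4 and by only -0.01 in L5.

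Of 25 potassium channel subunits, Kcna5 was called lower (-1.58 ± 0.52; 13.2 and 34.9 in L4, 115 and 73.9 in sham), 15 were below 0 and the median was -0.13, against -0.80 in L5. Kcna2 was under the signal filter. The 9 calcium channel subunits had a median of 0.08, with Cacna2d1 highest and Cacna1e lowest (-0.70 ± 0.25). The 8 transduction and pacemaker channels had a median of 0.13 with 0 calls; Trpv1, the capsaicin receptor, differed by 0.02 ± 0.24 and P2rx3, the ATP-gated channel of nociceptors, by 0.14 ± 0.15. The 29 G protein-coupled receptors had 0 calls and a median of 0.11, with the mu opioid receptor Oprm1 at -0.23 ± 0.40, and the 18 GABA and glutamate receptor subunits had 0 calls and a median of 0.07. The 20 neurotrophic factors and receptors had 1 call, Insr, and a median of -0.03; Ntrk2, the BDNF receptor, was lower in every pair (-0.25 ± 0.08).

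Structural and synaptic genes of neurons gave single calls within lists that stood near 0. Sv2a, a synaptic vesicle glycoprotein, gave 229.7 and 204 in L4 against 509 and 478 in sham (-1.12 ± 0.09), the only call among 32 vesicle release genes, whose median was 0.05; at 50 days it stood at 0.17, and scaled to hybridisation controls at -0.58, without a call. Rab3a, a vesicle GTPase, was higher in every pair (0.70 ± 0.14), and so at 50 days (0.36). Slc17a6, the glutamate transporter of most sensory neurons, was higher by 0.49 ± 0.17 and at 50 days by 0.59, again in every pair. Tuba1a was the only call among 28 cytoskeleton genes (median 0.10). General neuron markers had a median of 0.14 with 12 of 17 above 0 and 0 calls, against -0.35 in L5. Of these 17, 10 were higher in every pair and 4 lower (19.7% and 23.5% of all genes were). The large-diameter neuron markers (median -0.10) had 1 call, Cntn1 (1.07 ± 0.50), which gave 182 and 182 in L4 and 118 and 53.0 in sham. The 9 peptidergic (median -0.02) and 9 non-peptidergic (0.03) nociceptor markers had 0 calls; in L5 these medians were -0.60 and -0.62.

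Macrophage genes, which stood well above sham in L5, did not do so in L4. The 18 macrophage markers had a median of 0.04 in L4 and 1.12 in L5. Cd74, the invariant chain of MHC class II, was the only call with the brightest probe set per gene, at 763 and 780.3 in L4 against 335 and 353 in sham (1.12 ± 0.04), and it is also the only call among 18 antigen presentation genes (median 0.16, and 0.33 in L5). Its 3 other probe sets were higher too, by 0.22 to 0.83, and at 50 days it stood at -0.52. Lyz2, the macrophage lysozyme, differed by 0.07 ± 0.06 in L4 and 1.76 in L5, and Ctss, cathepsin S, by -0.14 ± 0.08 and 1.84. Tyrobp, an adaptor of myeloid receptors, was lower in L4 in every pair (-0.72 ± 0.24). T cell markers (9 genes, median -0.07) and complement genes (17 genes, median 0.10) had 0 calls; in L5 their medians were 0.22 and 0.19. Of 23 cytokines and chemokines, Il1b was called lower, with 25.8 and 25.4 in L4 against 69.5 and 62.8 in sham (-1.04 ± 0.06, or -0.75 and no call when scaled to hybridisation controls), and the median was -0.06, beside 0.31 in L5.

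Glial lists stood at medians of -0.07 (13 myelinating Schwann cell markers), -0.04 (12 repair Schwann cell markers) and 0.16 (11 satellite glia markers), with 0 calls in each. Immediate early and heat shock genes (25 genes, median -0.08), cholesterol synthesis genes (24 genes, median -0.06, with Mvk called lower), fat cell markers (10 genes, median -0.01) and 70 oxidative phosphorylation genes (median 0.03, 0 calls) were likewise close to sham. The 9 Hox genes, which carry the identity of body segments, had a median of -0.01 and 0 calls, in a comparison of L4 alone with L4 and L5 together.

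Extracellular matrix genes were lower in L4 as a group, with small differences that turned positive (median 0.14, against 0.37 for all probe sets) only when scaled to hybridisation controls. Of 47 tested genes 38 were below 0 (52.8% of all genes were), the median was -0.27, 24 were lower in every pair and 4 higher (23.5% and 19.7% of all genes were), and 0 reached the fold. Fn1, fibronectin, gave 613 and 573 in L4 against 1205 and 1144 in sham (-0.97 ± 0.06), though its other probe set had the opposite sign. Mgp, the matrix Gla protein, gave 753 and 809 against 1385 and 1330.2 (-0.79 ± 0.06), and Col4a1, a basement membrane collagen, 900.1 and 814 against 1398 and 1655 (-0.81 ± 0.14). The collagens of scar and sheath tissue were lower by less: Col1a1 by -0.51 ± 0.18, Col1a2 by -0.44 ± 0.09 and Col3a1 by -0.41 ± 0.11. At each of these 6 genes both L4 arrays lay below both sham arrays. Sparc (0.12 ± 0.02) and Timp1 (0.24 ± 0.03), an inhibitor of matrix metalloproteinases, were slightly higher in every pair.

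Vessel cell markers followed the same way, with 13 of 15 below 0 and a median of -0.41. Eng, the endothelial receptor endoglin, was called lower (-1.06 ± 0.79), but its L4 arrays gave 100.1 and 22.8 against 144 and 111 in sham, and it lost the call when scaled to hybridisation controls (-0.88). Rgs5, a marker of pericytes, gave 70.6 and 69.0 in L4 against 137 and 134 in sham (-0.79 ± 0.02), and Acta2, smooth muscle actin, 222 and 201 against 438 and 298 (-0.74 ± 0.28). The endothelial genes Cdh5 (0.05 ± 0.18) and Cldn5 (-0.24 ± 0.12) differed less.

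Skeletal muscle markers stood the other way: 18 of 22 were above 0 (47.2% of all genes were), the median was 0.42, and 4 were called higher (0.738% of all genes were). Acta1, skeletal muscle actin, gave 430.5 and 479 in L4 against 222 and 153 in sham (1.25 ± 0.26). Ckm, muscle creatine kinase, gave 248 and 170.3 against 104 and 69.8 (1.16 ± 0.36). Atp2a1, the calcium pump of fast muscle, gave 122 and 147 against 49.4 and 50.0 (1.24 ± 0.12), and Myh2, a fast myosin, 24.4 and 31.2 against 5.2 and 6.5 (1.12 ± 0.13). The sham values of Myh2 are below the pseudocount, and without it, as with the filter on L4 and sham arrays alone, 3 of 21 were called, 17 were above 0 and the median was 0.39. With the pseudocount at the 40th percentile Atp2a1 (0.97), Ckm (0.98) and Myh2 (0.58) lost their calls. With 1 array left out, Acta1 fell to 0.99 and Ckm to 0.91 without the second sham array, Ckm to 0.90 without the first L4 array, and Myh2 to just under 1 without the second. Myl11, called above, was not matched to the list by its symbol. Muscle is not a part of the ganglion, and the share of muscle tissue in the pools was not measured.

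Among the 4 pools of L4 and sham at 28 and 50 days, the sham pool of 28 days stood apart for these 3 lists. It was the highest for 31 of 47 matrix genes and 9 of 15 vessel markers (27.6% of all genes) and the lowest for 16 of 22 muscle markers (25.0% of all genes). This was not limited to the 3 lists. The same pool was the lowest for 10 of 17 general neuron markers and the highest for 2. Of 28 cytoskeleton genes it was the lowest for 12 and the highest for 5. The 3 lists were picked by their L4 minus sham medians at 28 days, so sham standing beyond L4 at that day came with the choice. The L4 pool of 28 days was the lowest for 9 matrix genes and 4 vessel markers (27.2% of all genes). It was the highest for 1 muscle marker (21.4% of all genes). The summed signal of the muscle markers was 2849 and 3159 on the sham arrays of 28 days, 3915 and 4158 on the L4 arrays of that day, and 4147 to 4496 on the L4 and sham arrays of 50 days; in L5 at 28 days it was 6955 and 7318. For matrix genes it was 42849 and 46317 in sham at 28 days, 34570 and 34842 in L4 at 28 days, and 27487 to 31756 at 50 days; in L5 at 28 days it was 63298 and 58858. For vessel markers it was 2151 and 2530 in sham and 1713 and 1841 in L4 at 28 days, and 1831 to 2013 at 50 days; in L5 at 28 days it was 2212 and 2615. The lowest signal of a tested muscle marker on the L4 and sham arrays of 28 days was 5.0, below the pseudocount. Tested members had passed a filter on mean signal, so this value does not show whether a pool held muscle RNA. At 50 days the L4 minus sham medians of the 3 lists were 0.05 (matrix), 0.00 (vessel) and -0.03 (muscle). The part of muscle, vessel or sheath tissue in these results was not tested.

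**Figure D4:**
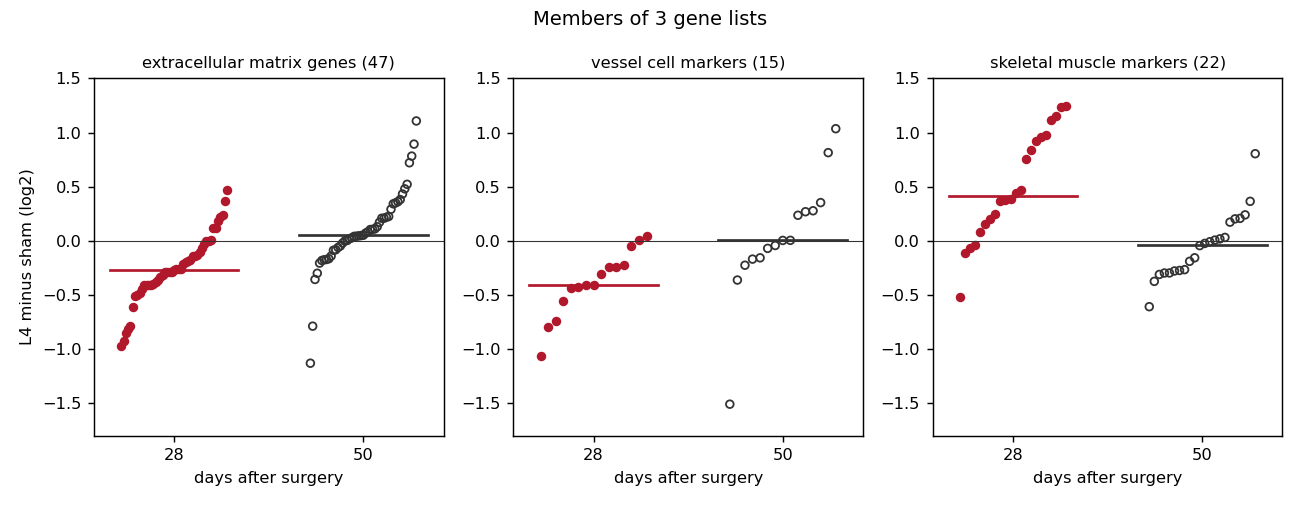
L4 minus sham difference (log2) of every tested gene of 3 lists at 28 days (filled) and 50 days (open), sorted within each day, with the median as a line. Medians of -0.27 (matrix), -0.41 (vessel) and 0.42 (muscle) at 28 days stand beside 0.05, 0.00 and -0.03 at 50 days; with scaling to hybridisation controls the matrix median at 28 days is 0.14.

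Blood cell markers, the remaining list of another tissue, had a median of 0.24 at 28 days and -0.26 at 50 days, with 8 of 10 genes above 0 and 0 calls at 28 days. Of the 32 lists, 28 had medians within 0.2 of 0, and 12 held at least 1 call. Scaled to the hybridisation controls, the vessel median was -0.04 and the muscle median 0.76.

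**Figure D5:**
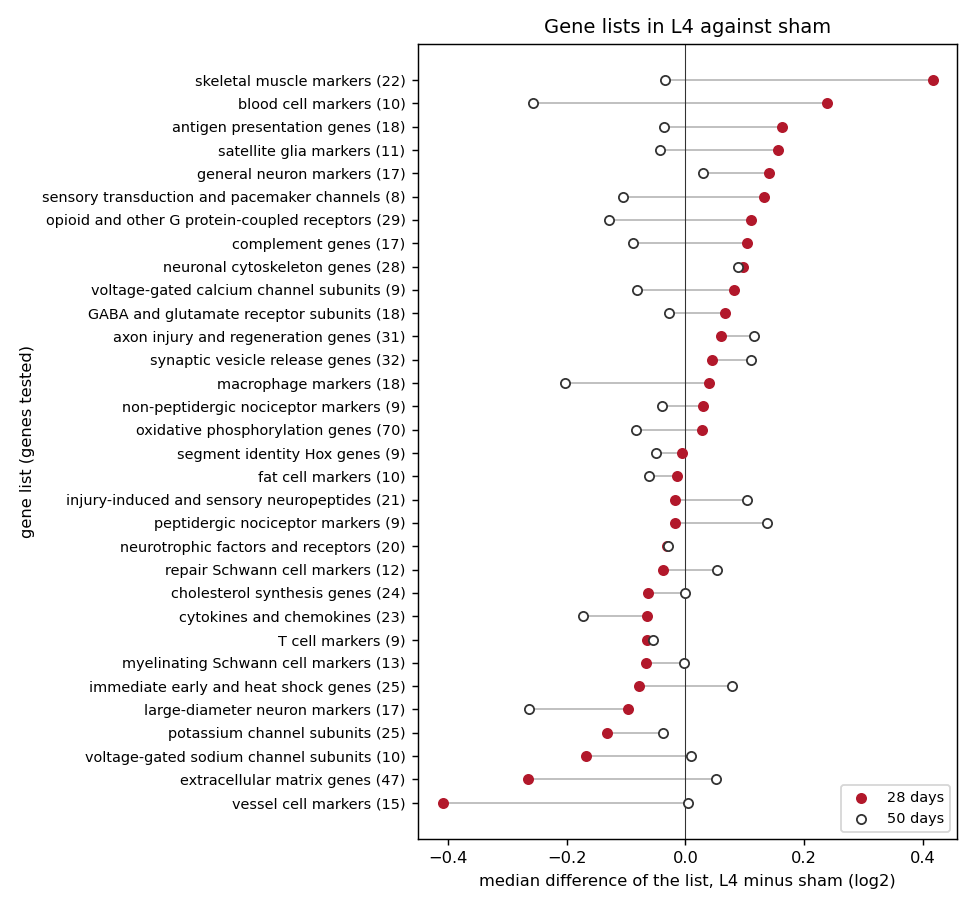
Median L4 minus sham difference (log2) of each of 32 gene lists at 28 days (filled) and 50 days (open), ordered by the value at 28 days, with the number of tested genes in brackets. Skeletal muscle markers (0.42) and vessel cell markers (-0.41) are the ends at 28 days, and both are near 0 at 50 days; small negative medians turn positive with scaling to hybridisation controls.

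The pools of 50 days gave the only other measurement of L4 against sham, and time and pool cannot be told apart between them. At 50 days 158 probe sets were called higher (1.01%) and 139 lower (0.884%). Across all probe sets the differences of the 2 days correlated at 0.01 in L4 and at 0.32 in L5, a description over probe sets that share arrays. Of the 167 called higher at 28 days, 93 (55.7%) were above 0 at 50 days, where 50.1% of all probe sets were, and of the 95 called lower 41 (43.2%) were below 0, where 49.9% of all were. Called again in the same direction were 6 (3.59% of the calls at 28 days and 3.80% of those at 50 days) and 7 (7.37% and 5.04%), while 3 and 5 were called the opposite way.

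Of these 13 probe sets 7 had 1 gene, and they are named after their values were seen. Higher at 28 and 50 days were Vdac1 (1.67 ± 0.59 and 1.00), the main channel of the outer mitochondrial membrane, Ezh1 (1.21 and 1.70), a histone H3 lysine methyltransferase, Eefsec (1.18 ± 0.16 and 1.16), the elongation factor for selenocysteine, and Taok2 (1.03 and 1.82), a kinase of the stress-activated MAPK pathway. Lower were Tcof1 (-1.85 and -1.06), Gdf10 (-1.60 ± 0.41 and -1.62) and Bcat2 (-1.48 and -1.85), the mitochondrial aminotransferase of branched-chain amino acids. Other probe sets of Vdac1 stood at -0.05 and 0.75 at 28 days, and that of Ezh1 at 0.13. At 50 days the L4 signals of Eefsec were 156.4 and 40.2 (technical SE 0.81). With the pseudocount at the 40th percentile Eefsec, Ezh1 and Taok2 lost their calls at 28 days, and Taok2 also with quantile normalization. Some of the 7 genes hung on 1 array at 28 days. Ezh1 (technical SE 0.81) had sham signals of 17.0 and 90.2 and differed by 0.42 without the first, Taok2 differed by 0.45 without the first sham array of chip B, which is the one of unclear day, and Bcat2 (technical SE 0.69) had L4 signals of 24.4 and 84.1 and differed by -0.78 without the first. Of the 14 leading genes higher in L4, Flot2 (0.89), Tuba1a (0.98), Ptpa (0.90) and Arg1 (0.75) came closest at 50 days without reaching the fold.

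A test of the condition was possible only over both days, with the 4 pools of L4 and sham and the day as a covariate (limma, 1 residual degree of freedom, Benjamini-Hochberg over 15721 probe sets). It called 7 probe sets (0.0445%), 5 higher and 2 lower, and 856 had an unadjusted p under 0.05. Flot2 was higher by 1.48 over both days (limma adjusted p = 8.80e-07), Vdac1 by 1.34 (0.0030), Scd2, a fatty acid desaturase, by 0.92 (0.015) and Bcat1, the cytosolic branched-chain aminotransferase, by 0.87 (0.019). Bcat2 was lower (-1.66, limma adjusted p = 2.58e-05), and so was Mapk8ip2 (-1.36, 1.60e-08), a scaffold of JNK signalling. The seventh probe set (1.42) had no single gene symbol. For Mapk8ip2 the L4 arrays of 50 days gave 918 and 29.1, so 1 array set its value. All 7 were on chip A, where limma estimated an infinite prior degrees of freedom, so a probe set's own spread between days carried no weight; on chips B and C the prior was 6.84 and 11.5. With all 6 pools or with no intensity trend limma called 0, with 427 and 928 probe sets at an unadjusted p under 0.05. It also called 0 without the first sham arrays of 28 days or without the second L4 arrays of 28 days (754 and 706 at that p). The arrays of 50 days were all kept in these fits. The injury genes did not pass: the limma adjusted p was 0.13 for Npy, 0.42 for Vip, 0.50 for Cacna2d1, 0.52 for Gal and 0.93 for Atf3.

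The genes that differed most in the ligated ganglion were also read in its neighbour, taking L5 calls from 50 days so that no array is shared. Of 518 probe sets called higher in L5 at 50 days, 267 (51.5%) were above 0 in L4 at 28 days, beside 49.0% of all probe sets, with a median of 0.03, and 20 (3.86%) were called higher, beside 1.06% of all. Of 399 called lower in L5, 185 (46.4%) were below 0 in L4, beside 51.0% of all, with a median of 0.03, and 8 (2.01%) were called lower, beside 0.604% of all. The filter used the L5 arrays too. With a filter on L4 and sham arrays alone, 213 of 427 (49.9%) were above 0, with a median of -0.0006, and 18 (4.22%) were called higher. On the lower side 206 of 445 (46.3%) were below 0 and 9 (2.02%) were called. These shares were not matched for signal. Of all probe sets with a mean signal under 100, 2.07% were called higher in L4 and 1.52% lower.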

How the data were processed

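The deposited values were intensity signals made by the authors with MAS5 (per the submitters' processing notes; version not given in the sources used here). The deposited arrays share 1 trimmed mean, taken without the outer 2% of values, and this scaling was repeated. Signals were then taken as log2(signal + the 20th percentile of a chip type), control probe sets were left out, and the lowest 40% by mean signal were filtered. No detection calls were used. Limma 3.58.1 (R 4.3.3) was tested on simulated data. Names came from the platform annotation, checked against RefSeq (GRCr8, names alone): 18149 of 18214 probe sets with 1 gene were found and 0 symbols updated.

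The named genes were the 14 probe sets called higher and the 14 lower with 1 gene and the largest smallest difference among array pairs, up to 4 called members of each list, and 20 genes in any case, 18 of them tested. The members and the 32 lists were chosen with earlier results of these data known. Alternatives changed scaling, pseudocount, filter, variance prior and arrays used. All columns were used.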

Additional observations from a re-analysis of the deposited data

Results flagged for a closer look

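For 8 named genes every L4 array stood on one side of every sham array at 28 days and on the other side at 50 days. Over all probe sets, 8.87% stood on opposite sides at the 2 days and 8.29% on the same side, and the difference between days was not tested. N5 differed by 1.64 at 28 days and -0.49 at 50 days, and Igf2bp2 by 1.61 and -0.48. Atp2a1 differed by 1.24 and -0.30, and Cd74 by 1.12 and -0.52. In the other direction were Mrpl38 (-1.45 and 0.76), Fst (-1.34 and 0.57), Eng (-1.06 and 1.04) and Scn11a (-0.16 and 0.08).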

How the results depend on the processing

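The counts depend on the processing. Of 44 named called probe sets, 17 lost the call with the pseudocount at the 40th percentile, 4 with scaling to hybridisation controls and 1 with quantile normalization, and with those controls some uncalled genes turned sign, such as Sprr1a (0.27), Calca (0.35) and Scn11a (0.25). Counts of probe sets called higher and lower at 28 days, and of calls with the same sign at 50 days (167, 95 and 134 as reported), were 829, 31 and 453 with arrays scaled to hybridisation controls, 267, 150 and 216 with the pseudocount at the 10th percentile, 49, 25 and 40 with it at the 40th, 323, 304 and 307 with no filter, and 65, 22 and 48 with the filter at the 60th percentile. They were 184, 88 and 141 with quantile normalization and 183, 83 and 135 with median centring. Per gene the counts were 61 and 45. With 1 array number left out they ran from 226 to 402, 185 to 251 and 244 to 283, the extremes for higher being without the second L4 and the second sham arrays. The rule is looser with an array left out, as only 2 array pairs had to differ and 1 side rested on a single array. Without the chip B sham array of unclear day, 213 and 116 were called. With a filter on the L4 and sham arrays alone, chosen after seeing the data, they were 175, 98 and 143. The limma count over both days (7) was 0 with all 6 pools (427 at an unadjusted p under 0.05), with no trend (928) and with no filter (1370). It was 1 with the pool as a random block, 15 with quantile normalization, 60 with hybridisation controls and 11 with the pseudocount at the 40th percentile. It was 8 in each of the 5 other settings, and 0 to 14 with 1 array number of 28 days left out. Leaving out a pool leaves no residual degrees of freedom and was not run. Replicate numbers are arrays of 1 pool. Over tested probe sets the array 1 minus 2 differences of the L4 and sham pools correlated at 0.003 to 0.095. Some signals still went with the number in both pools. The highest chip C signal was 8196.5 (L4) and 9474.7 (sham) on the first arrays, and 20656.7 and 24147.5 on the second. On chips A and B the highest signals of a pool's 2 arrays were closer. With the replicate block, pairing only same-numbered arrays, 170 and 99 were called. The cause of these moves was not tested.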
